A study of Mus musculus with 34 samples.

Results

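The mouse Hox cluster genes were taken as every protein-coding gene whose symbol is Hox, a cluster letter from a to d and a paralog number. The rule found 39 genes in each of the 3 count tables, which list 28432 genes (96 h cultures), 30351 genes (10 d cultures) and 29745 genes (tumors). Hoxa gave 11 members, Hoxb 10, Hoxc 9 and Hoxd 9. The rule used names and no measured value, but it was set with earlier results of these data known. RNA sequencing followed mouse small cell lung cancer (SCLC) cells given BOM (bomedemstat), which inhibits LSD1, to ask which genes it changes in culture and in flank tumors of immunocompetent mice. At 96 h the cultured lines RP-116, G8545 and RP-48 each gave 1 BOM library and 1 DMSO library. At 10 d the cultured line RP-48OVA-LLO190 gave 2 BOM plus interferon gamma (IFNg) libraries, 2 BOM libraries, 3 DMSO plus IFNg libraries and 3 DMSO libraries, with IFNg present for the last 48 h. Flank tumors of RP-48OVA-LLO190, labelled 16 d, were from mice given BOM plus anti-PD1 antibody (4 tumors), BOM (4), anti-PD1 (5) or vehicle (5). Each line at 96 h has 1 library per treatment, the 10 d and tumor groups rest on 1 tumor cell line, and the labels give neither dose nor mouse strain and do not say that the libraries of a group came from separate cultures, so p-values measure the spread between these libraries, which may be technical.

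Hox genes encode homeodomain transcription factors that give cells their position along the body axis. They lie in clusters on different chromosomes, and their order along a cluster matches the order in which they are used from head to tail, with low paralog numbers at the anterior end and high numbers at the posterior end. Trithorax group (MLL) complexes keep them active, Polycomb complexes keep them silent, and retinoic acid switches on anterior members in the embryo. LSD1, a demethylase encoded by Kdm1a, removes methyl groups from lysine 4 of histone H3, a mark of active promoters and enhancers.

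Total counts were 8712025 to 9968681 per library at 96 h, 5896627 to 9044398 at 10 d and 5638353 to 82205546 in tumors, where vehicle tumor 1 held the 82205546 and vehicle tumor 2, the next deepest, 13150056. Vehicle tumor 4 stood apart as well, with a count for 23727 genes at 6524808 counts, against 23369 genes in vehicle tumor 1 and 17855 to 19516 in the other 16 tumors. All 12 neuroendocrine SCLC markers had counts in every group, and their summed level was 3380 to 5130 CPM (counts per 1000000) per cultured library and 3400 to 4520 CPM per tumor. Summed fibroblast markers were 291 to 2370 CPM in tumors, and in culture reached 70.2 CPM at 10 d and 174 CPM at 96 h. Summed macrophage markers were 206 to 1290 CPM in tumors and at most 15.5 CPM in cultured libraries, so the tumors also held host cells. In bulk samples, fewer cells of a type and less RNA per cell cannot be told apart. Kdm1a, the BOM target, was lower with BOM at 10 d (log2 fold change -0.28, adjusted p = 0.0186) and in tumors (-0.23, adjusted p = 0.043), by edgeR's quasi-likelihood test with Benjamini-Hochberg adjustment, the test used throughout.

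Nearly all Hox counts of a line came from 1 contiguous stretch of 1 cluster. In the GENCODE M21 annotation of mm10, the Hoxb cluster spans chr11:96194316-96368256, with Hoxb13 at one end, Hoxb9 starting 77.1 kb in, Hoxb2 starting 156.2 kb in and Hoxb1 starting 171.4 kb in. RP-116 and RP-48 libraries held counts over the 8 genes Hoxb9 to Hoxb2, and at most 2 per library over Hoxb13 and Hoxb1 on either side. The Hoxd cluster spans chr2:74668310-74765142, and G8545 libraries held counts over the 4 neighbours Hoxd11 (starting 11.2 kb in), Hoxd10 (23.6 kb), Hoxd9 (29.4 kb) and Hoxd8 (36.3 kb), with at most 2 counts per library over Hoxd13, Hoxd12, Hoxd4, Hoxd3 and Hoxd1. The Hoxa cluster (chr6:52155590-52260880) and the Hoxc cluster (chr15:102921103-103036852) were close to silent in all 6 libraries.

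The promoters of 4 genes at the heart of this split are shown, from 250 bases before to 50 bases after the annotated start, as RefSeq gives them on GRCm38.p6, all on the plus strand. Hoxb4 (chr11:96318017-96318316) and Hoxb8 (chr11:96281655-96281954) had at most 1 count per library in G8545 and were abundant in RP-116 and RP-48, and Hoxd8 (chr2:74704365-74704664) and Hoxd10 (chr2:74691641-74691940) were abundant in G8545 and had at most 2 counts per library in the other lines. Capitals mark the letters TATAAA or CCAAT on either strand, which appear as TTTATA or ATTGG where the match is on the minus strand.
Hoxb4: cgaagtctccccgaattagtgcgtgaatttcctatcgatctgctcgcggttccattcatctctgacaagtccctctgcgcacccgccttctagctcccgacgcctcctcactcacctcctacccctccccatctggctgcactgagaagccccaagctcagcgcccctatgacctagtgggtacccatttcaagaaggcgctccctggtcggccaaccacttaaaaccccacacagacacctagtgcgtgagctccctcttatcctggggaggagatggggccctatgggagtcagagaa
Hoxb8: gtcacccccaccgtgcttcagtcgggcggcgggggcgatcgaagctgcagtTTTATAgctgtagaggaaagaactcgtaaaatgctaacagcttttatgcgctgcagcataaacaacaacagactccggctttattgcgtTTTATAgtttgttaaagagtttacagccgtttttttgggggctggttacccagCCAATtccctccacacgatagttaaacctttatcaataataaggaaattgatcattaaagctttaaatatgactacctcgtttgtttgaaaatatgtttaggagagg
Hoxd8: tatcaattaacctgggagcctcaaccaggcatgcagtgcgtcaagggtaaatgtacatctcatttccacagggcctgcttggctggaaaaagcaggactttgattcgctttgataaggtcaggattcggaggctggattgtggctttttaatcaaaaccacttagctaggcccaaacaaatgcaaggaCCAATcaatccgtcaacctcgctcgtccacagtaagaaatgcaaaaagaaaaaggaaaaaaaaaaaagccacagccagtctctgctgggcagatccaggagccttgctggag
Hoxd10: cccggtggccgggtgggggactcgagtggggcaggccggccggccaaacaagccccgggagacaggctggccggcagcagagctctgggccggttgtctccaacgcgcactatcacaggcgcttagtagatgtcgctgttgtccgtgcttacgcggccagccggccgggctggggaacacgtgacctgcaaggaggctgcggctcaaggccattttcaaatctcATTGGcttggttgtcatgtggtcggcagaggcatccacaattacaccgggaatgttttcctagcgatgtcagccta
RefSeq held promoters for 22 of the 39 members, 24 in all. The count of CG pairs was 14 for Hoxb4, 13 for Hoxb8, 6 for Hoxd8 and 22 for Hoxd10, against a median of 14.5 for the 24 Hox promoters and 7 for all 32851 promoters in the table. CCAAT was in 15 of the 24 Hox promoters and in 37.4% of all promoters, and TATAAA in 4 of 24 and 13.6%. TGATTNAT, the joint site of HOX proteins and their PBX partners, was in 2 of 24 and 3.22%. AGGTCA repeated with 5 bases between, the direct repeat of retinoic acid receptors, was in 0 of 24 and 0.00913%. All motifs were searched on both strands, and the marked matches do not overlap. A match is a string of letters and not a binding site.

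At 96 h the Hoxb genes were the abundant Hox transcripts of RP-116 and RP-48, and Hoxd genes those of G8545. Hoxb9, the most posterior gene of the central Hoxb block and a regulator of rib and mammary development, had 429 CPM with BOM and 399 CPM with DMSO in RP-116, 0.101 CPM with BOM and 0 with DMSO in G8545, and 144 CPM with BOM and 129 CPM with DMSO in RP-48. The lines did not overlap: RP-116 was highest and G8545 held 1 count in all. Hoxd8, a trunk gene, had 0 in both RP-116 libraries, 58.9 CPM with BOM and 37 CPM with DMSO in G8545, and 0.1 CPM with BOM and 0 with DMSO in RP-48. G8545 stood above the other lines in both libraries. Hoxd11, a patterning gene of forearm and kidney, had 23.6 CPM with BOM and 11.7 CPM with DMSO in G8545, 0 in RP-116 and 1 count in all in RP-48. Hoxd10, which acts in hindlimb motor neurons, had 10.9 CPM with BOM and 5.22 CPM with DMSO in G8545, 0 in RP-116 and 3 counts in all in RP-48.

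**Figure D1:**
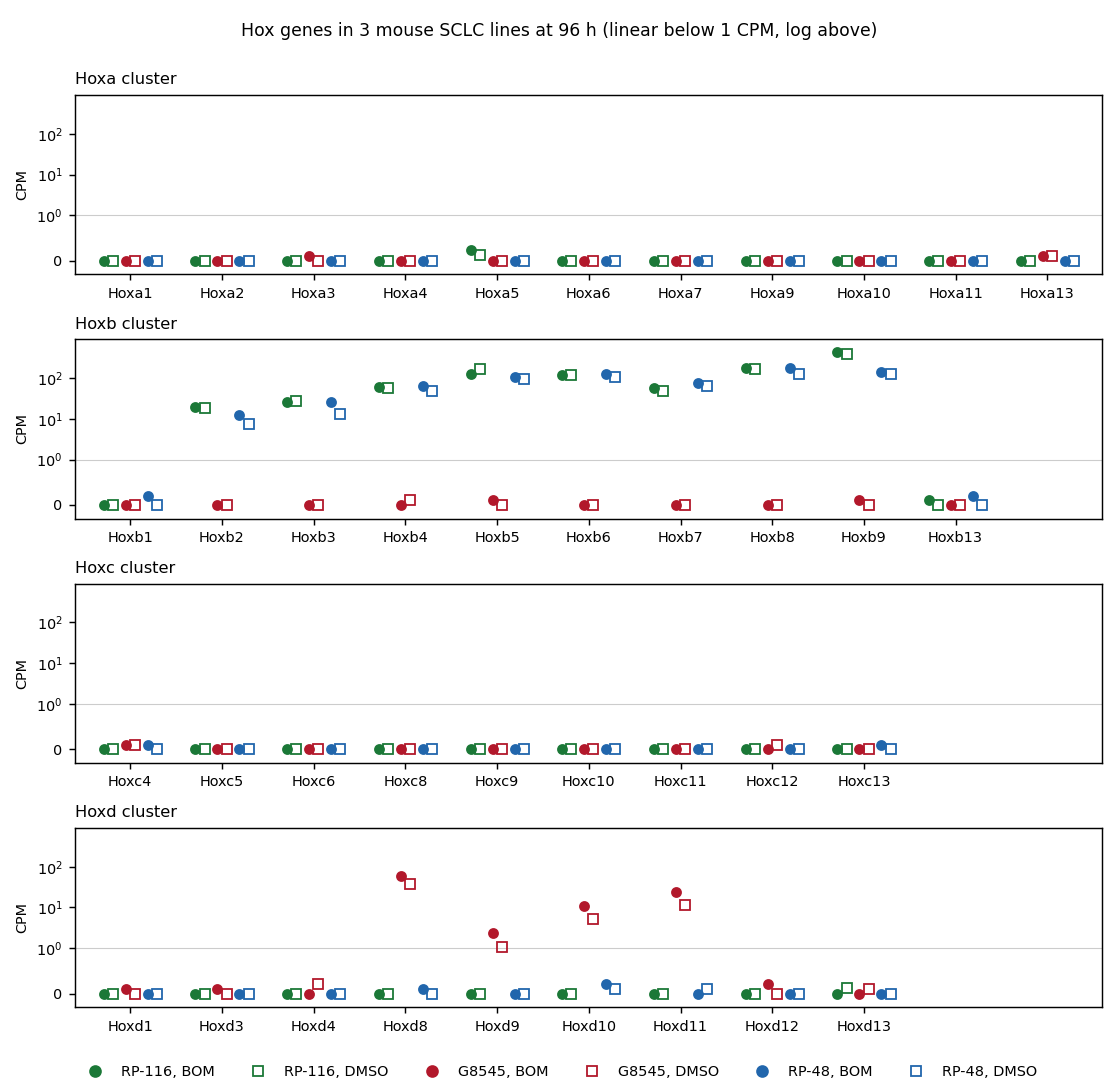
Level of each of the 39 Hox genes (y axis, CPM, linear below 1 and logarithmic above) in the 6 libraries at 96 h, by cluster. Filled circles are BOM and open squares DMSO, 1 library each per line. Hoxb2 to Hoxb9 carry RP-116 and RP-48, with Hoxb9 at 399 to 429 CPM in RP-116, and Hoxd8 to Hoxd11 carry G8545, with Hoxd8 at 37 to 58.9 CPM.

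Summed over both libraries of a line, RP-116 had 17792 counts over Hoxb, 1 over Hoxd, 3 over Hoxa and 0 over Hoxc. G8545 had 3 counts over Hoxb, 1505 over Hoxd, 3 over Hoxa and 3 over Hoxc, and RP-48 had 12847, 5, 0 and 2 in the same order. By member, 28 of 39 were at 0 in RP-116, 23 in G8545 and 24 in RP-48, and 0 counts over the 2 libraries of a line allow up to 0.171 CPM, 0.151 CPM and 0.156 CPM. This limit covers counting error and no other. Members at 1 to 5 counts in a line numbered 3 in RP-116, 12 in G8545 and 7 in RP-48. In all, 14 members were at 0 in the 6 libraries.

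Per kilobase of the listed gene length, RP-116 and RP-48 ordered the block differently. Mean levels per library in RP-116 were 161 RPKM (CPM per kilobase of gene) for Hoxb9, 66.3 for Hoxb8, 61.9 for Hoxb6, 52 for Hoxb5, 35.1 for Hoxb7, 23 for Hoxb4, 6.33 for Hoxb3 and 5.55 for Hoxb2. RP-48 had Hoxb6 at 59.8 RPKM, Hoxb8 at 58.6, Hoxb9 at 53.1, Hoxb7 at 46.1, Hoxb5 at 35.7, Hoxb4 at 22.1, Hoxb3 at 4.54 and Hoxb2 at 2.83. Hoxb6, Hoxb8 and Hoxb9 thus lay close together in RP-48, while Hoxb9 led in RP-116. G8545 had Hoxd8 at 17.5 RPKM, Hoxd10 at 4.44, Hoxd11 at 4.2 and Hoxd9 at 0.798. The lowest levels of the Hoxb block were those of its anterior genes Hoxb3 and Hoxb2, which pattern the hindbrain, in both lines.

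RP-116 and RP-48 were compared over BOM and DMSO libraries together, with treatment as a term, so the spread is what line and treatment leave over. Of 12 members that passed the filter on low counts, 2 were called at adjusted p under 0.05, both higher in RP-116. The background was 30.1% of 14235 genes, 13% higher and 17.1% lower. Hoxd8 to Hoxd11, which passed the filter through G8545, had 0 counts in RP-116 and at most 3 in RP-48. They could hardly be called here, so the 2 calls are best read as 2 of the 8 Hoxb genes tested. Hoxb9 was higher in RP-116, at log2 1.65 ± 0.16 (SE, adjusted p = 0.00018), and the ratio of its summed counts, each divided by the line's total, was 3.02 (95% counting interval 2.89 to 3.16). Hoxb2, a hindbrain gene, had 19.8 CPM with BOM and 18.9 CPM with DMSO in RP-116, and 12.2 CPM with BOM and 7.55 CPM with DMSO in RP-48. The lines did not overlap, and Hoxb2 was higher in RP-116 at log2 1.05 ± 0.31 (adjusted p = 0.038). The Hoxb2 call was lost without any 1 of the 4 libraries of these lines and with DESeq2, and that of Hoxb9 was kept in each of these. Without the RP-116 BOM library, Hoxb5 was called in its place. Hoxb5 (0.58, adjusted p = 0.0644), Hoxb3 (0.60, 0.206) and Hoxb7 (-0.34, 0.209) missed the threshold. Without either G8545 library, 4 members were called, Hoxb3 and Hoxb5 being added.

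G8545 differed from RP-48 in all 12 members tested, against 23.6% of all genes (11.8% higher and 11.8% lower), and RP-116 differed from G8545 in all 12, against 38.2% (17.2% higher and 21% lower). Each of the 12 passed the filter on low counts only through the line or lines where it was abundant. The calls of all 12 were thus largely fixed by the filter and are not read as an excess over these shares. The 8 Hoxb genes were lower and the 4 Hoxd genes higher in G8545 in both comparisons. Against RP-48, Hoxb8 was at least 1030-fold lower in G8545, Hoxb6 at least 780-fold, Hoxb7 at least 473-fold, Hoxb3 at least 130-fold and Hoxb2 at least 66.1-fold, with the 0 counts of G8545 set to 3 over its 2 libraries. Hoxd8 was 922 times as high in G8545 as in RP-48 by summed counts over the line's total (95% counting interval 165 to 36500), Hoxd11 340 times (60.6 to 13500) and Hoxd10 51.6 times (17.3 to 253), and Hoxd9 was at least 11-fold higher. RP-116 exceeded G8545 by at least 1160-fold in Hoxb8 and at least 805-fold in Hoxb6, and Hoxd8 was at least 280-fold lower in RP-116 than in G8545. The Hoxd9 call, which rests on 23 counts with BOM and 11 with DMSO, was lost with DESeq2 in both comparisons. It was also lost without the G8545 BOM library in both, without either RP-48 library against RP-48 and without the RP-116 BOM library against RP-116, and the other 11 calls were kept in these fits.

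Noncoding RNAs of the clusters were read in the lines that held their Hox neighbours. Hoxb3os, antisense to Hoxb3 and Hoxb2, had 39 counts with BOM and 29 with DMSO in RP-116, 36 with BOM and 38 with DMSO in RP-48, and 0 in G8545. Hoxb5os, antisense to Hoxb5, had 179 counts with BOM and 94 with DMSO in RP-116, 0 with BOM and 1 with DMSO in G8545, and 39 with BOM and 33 with DMSO in RP-48. It was higher in RP-116 than in RP-48 (log2 2.06 ± 0.39, adjusted p = 0.00487). Hoxd3os1 had 30 counts with BOM and 22 with DMSO in G8545 and 0 in both other lines, and Haglr had 6 counts in each G8545 library and 0 in the others. The labels name an RNA library kit that does not mark strand, so counts of an antisense gene and of the Hox gene it overlaps cannot be told apart. Hoxd11 and Hoxd10 also share exon sequence with Gm28309 on the same strand, and Hoxd3 with Hoxd4.

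Partner and regulator genes of the Hox system were counted by lists chosen with earlier results of these data known, beside 30.1% of all genes called between RP-116 and RP-48 and 23.6% between G8545 and RP-48. In G8545 against RP-48 the called shares of the Polycomb list and of the trithorax and MLL list were near that background. Cdx2, a ParaHox gene that activates Hox genes in the posterior embryo, had 517 counts with BOM and 378 with DMSO in RP-116, 0 in both G8545 libraries, and 276 with BOM and 206 with DMSO in RP-48. It was lower in G8545 than in RP-48 (adjusted p = 3.7e-05) and higher in RP-116 than in RP-48 (log2 1.08, adjusted p = 0.00799). Of the 8 ParaHox and Evx genes, 3 were tested, and 2 were higher and 1 lower in RP-116 than in RP-48. Pdx1, a pancreas and gut gene, had 22 counts with BOM and 19 with DMSO in RP-116, against 1 and 0 in RP-48, and Gsx1, a brain gene, had 2 and 1 in RP-116, against 19 and 11 in RP-48. Of 9 TALE homeodomain cofactors, which bind DNA with HOX proteins, 3 were higher (Meis2 2.19, Meis3 2.06, Pbx3 1.76) and 1 lower (Meis1 -4.66) in RP-116 than in RP-48. G8545 had 4 higher and 1 lower than RP-48, among them Meis3 (2.46) and Pbx3 (1.96) higher and Pknox2 (-1.38) lower. Meis1 was also lower in RP-116 than in G8545, at -4.94. Of 17 Polycomb genes, G8545 had 3 higher and 2 lower than RP-48, with Ezh2, the catalytic subunit that methylates lysine 27 of histone H3, at -1.08, and of 13 trithorax and MLL genes it had 3 higher and 0 lower, with Psip1, a chromatin tether of MLL, at 1.42. Of 11 tested retinoic acid genes it had 4 higher and 2 lower, with Aldh1a2, which makes retinoic acid, at -5.53.

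BOM for 96 h moved no Hox gene past the threshold when the 3 lines were fitted at once with line as a block. With 2 residual degrees of freedom, edgeR called 0 of 12 members, 0 reached an unadjusted p under 0.05, DESeq2 also called 0, and the background was 0.014% of 14235 genes. The lowest adjusted p was 0.833. The log2 fold change was positive in 11 of 12 members, with a median of 0.30 against -0.01 over all genes.

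Line by line the members' ratios of BOM to DMSO differed, each from 1 library against 1 and so with no test. These ratios are of counts scaled by TMM, so they differ slightly from ratios of the CPM given above. In G8545 Hoxd8 had 585 counts with BOM and 368 with DMSO, a ratio of 1.59 (95% counting interval 1.39 to 1.81). Hoxd11 had 234 counts with BOM and 117 with DMSO, a ratio of 1.99 (1.59 to 2.51), and Hoxd10 had 108 and 52, a ratio of 2.07 (1.47 to 2.94). Hoxd9, with 23 counts with BOM and 11 with DMSO, had a ratio of 2.08 whose interval (0.976 to 4.74) includes 1. So all 4 Hoxd ratios were above 1 in G8545, where 49% of all genes had a log2 ratio above 0 and 18.8% one above 0.5. In RP-48 the 8 Hoxb genes had ratios above 1, against 49.9% of all genes, and the largest were Hoxb3 at 1.94 (1.56 to 2.43), Hoxb2 at 1.6 (1.19 to 2.18) and Hoxb8, a gene of trunk and blood progenitors, at 1.44 (1.34 to 1.55). In RP-116, 3 of 8 Hoxb genes had a positive log2 ratio after TMM scaling, against 48.2% of all genes, while on unscaled CPM 6 of 8 were higher with BOM, against 52.8% of all genes. The counts for RP-48 and G8545 were 8 of 8 and 4 of 4 on unscaled CPM too. In RP-116 Hoxb5, a trunk and lung gene, had the lowest ratio at 0.728 (0.672 to 0.788). The RP-116 median was -0.00 on the log2 scale, against 0.30 in RP-48. Neighbours in 1 cluster share their chromosome region and their library, so they are not separate evidence.

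**Figure D2:**
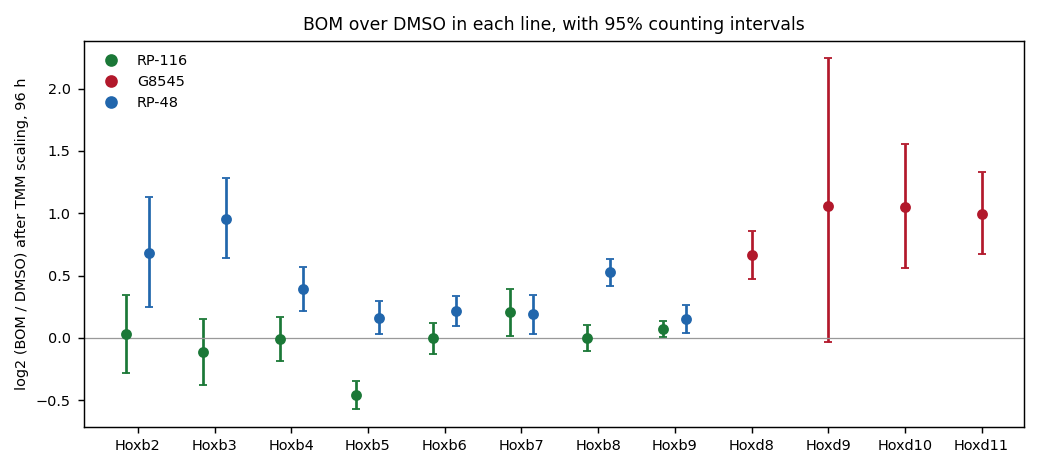
BOM over DMSO ratio after TMM scaling, on the log2 scale (y axis), for the 8 Hoxb genes in RP-116 and RP-48 and the 4 Hoxd genes in G8545 at 96 h. Points are 1 BOM library against 1 DMSO library, and bars are 95% intervals for counting error. The G8545 points lie above 0, RP-48 points lie above 0, and RP-116 points scatter about 0 with Hoxb5 (ratio 0.728) lowest.

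RP-48OVA-LLO190 cells at 10 d showed the same block as RP-48. The summed level of Hoxb2 to Hoxb9 was 375 to 456 CPM per library. The other 31 members gave 8 to 112 counts per library in sum, and the highest of them in any library was Hoxc6 at 2.42 CPM. In order of mean CPM, the members below the block began with Hoxc6 (1.07 CPM) and Hoxc8 (0.639 CPM), and 8 members were at 0 in all 10 libraries. Per kilobase, Hoxb6 led at a mean of 41.2 RPKM, then Hoxb8 at 29.8, Hoxb5 at 29.3, Hoxb4 at 22, Hoxb9 at 18.7, Hoxb7 at 17.7, Hoxb3 at 6.87 and Hoxb2 at 2.78. These libraries are labelled total RNA, unlike the polyA RNA of the other tables, so levels were not tested across tables.

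With BOM for 10 d, Hoxb9 fell and Hoxb8 rose. Hoxb9 had 28.1 and 34.7 CPM with BOM, against 77.9, 51.6 and 43.4 CPM with DMSO. Every BOM library lay under every DMSO library, with means of 31.4 ± 4.71 CPM with BOM (SD, n = 2) and 57.6 ± 18 CPM with DMSO (SD, n = 3). The log2 fold change was -0.94 ± 0.23 (SE, adjusted p = 0.00632). Hoxb8, its neighbour on the chromosome, had 92.7 and 96.6 CPM with BOM, against 76.9, 65.6 and 57.5 CPM with DMSO. Here every BOM library lay above every DMSO library, and the log2 fold change was 0.44 ± 0.11 (adjusted p = 0.00828). These were the calls, 1 higher and 1 lower, among 9 members tested, against 20.3% of 15230 genes (12.1% higher and 8.25% lower). The members' median log2 fold change was 0.19, against -0.01 over all genes.

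Other members of the block did not pass. Hoxb7 had 30.7 and 32.6 CPM with BOM, against 26.9, 19.8 and 23.9 CPM with DMSO, without overlap, at log2 0.36 (adjusted p = 0.122). Hoxb3 had 34.1 and 35.2 CPM with BOM, against 20.2, 24.6 and 33.7 CPM with DMSO, at 0.34 (adjusted p = 0.199). Its groups did not overlap on unscaled CPM but did after TMM scaling. Hoxb4, Hoxb5, Hoxb6 and Hoxb2 had log2 fold changes of 0.07, 0.19, 0.15 and 0.28. Without BOM library 1 the Hoxb9 call was lost, and without BOM library 2 that of Hoxb8. Without DMSO library 3, Hoxb3 was called as well. BOM library 1 also held the fewest counts over the 31 other members, 8 against 30 to 112 in the other 9 libraries.

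With IFNg present in both arms, BOM gave 3 calls, 2 higher and 1 lower, of 9 members, against 23.1% of genes (13% higher and 10.1% lower). Hoxb9 had 28.7 and 35.3 CPM with BOM plus IFNg, against 75.8, 45.8 and 59.4 CPM with DMSO plus IFNg, and again the groups did not overlap. It fell by 0.98 ± 0.22 on the log2 scale (adjusted p = 0.00387). Hoxb3 had 37.5 and 39.1 CPM with BOM plus IFNg, against 20.2, 24.4 and 23.1 CPM with DMSO plus IFNg, and rose by 0.70 ± 0.17 (adjusted p = 0.00695) with no overlap. Hoxb8 had 89.9 and 93.6 CPM with BOM plus IFNg, against 64, 78.7 and 68.4 CPM with DMSO plus IFNg, and rose by 0.32 ± 0.11 (adjusted p = 0.0418). The Hoxb8 call here was lost with DESeq2 and without any 1 of 7 libraries: BOM plus IFNg 1 or 2, BOM 1 or 2, DMSO plus IFNg 1 or 3, or DMSO 2. The Hoxb9 call was lost without BOM plus IFNg library 1 and the Hoxb3 call without BOM plus IFNg library 2, and 1 member was called in each of these fits.

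**Figure D3:**
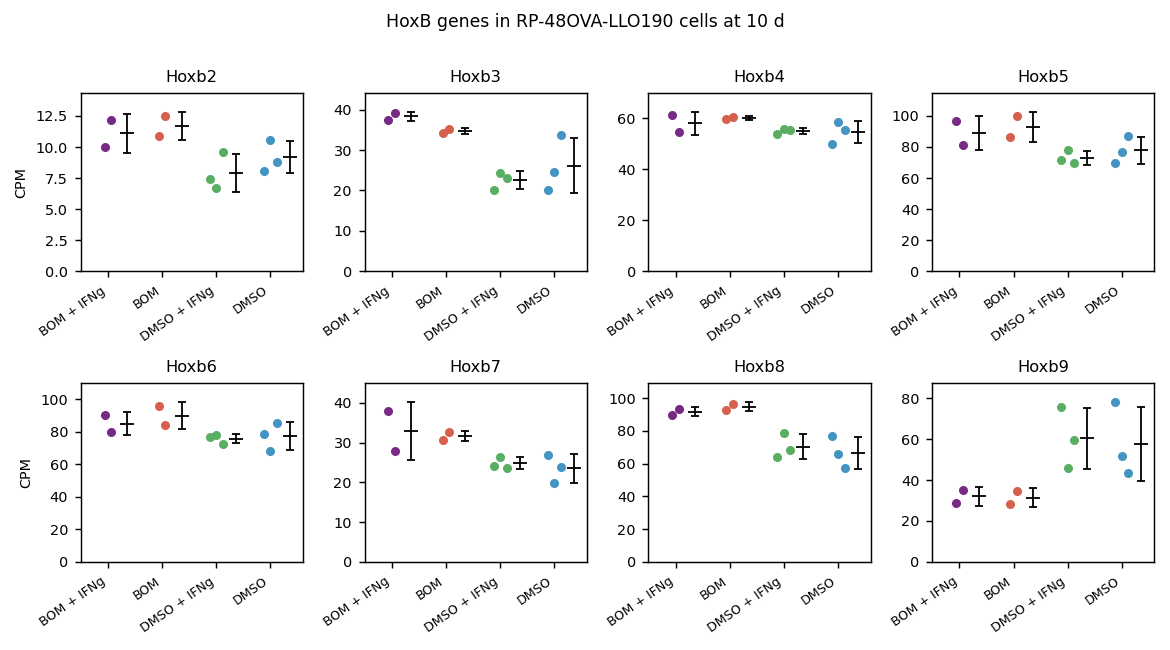
CPM (y axis, from 0) of Hoxb2 to Hoxb9 in RP-48OVA-LLO190 cells at 10 d in 4 groups. Points are libraries, and bars are mean ± SD (n = 2 with BOM, n = 3 with DMSO). BOM points lie at 28.1 to 35.3 CPM in the Hoxb9 panel, under all DMSO points (43.4 to 77.9), and above all DMSO points in the Hoxb8 and Hoxb3 panels.

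IFNg itself moved no member past the threshold. In DMSO cells 0 of 9 members were called by edgeR and by DESeq2 and 0 had an unadjusted p under 0.05, against 2.27% of genes called. In BOM cells 0 were called by either tool and 1 had an unadjusted p under 0.05, against 2.06%. That member was Hoxc6, a trunk gene, with 15 and 14 counts with BOM plus IFNg against 0 and 3 counts with BOM (log2 2.95, adjusted p = 0.373). Its 0 was in BOM library 1, the library with the fewest counts over members outside the Hoxb block. The interaction of BOM and IFNg called 0 members by either tool, 0 had an unadjusted p under 0.05, and edgeR called 0% of genes. Its Hoxb3 estimate was 0.36 ± 0.25, so a difference of Hoxb3's response to BOM with and without IFNg was not shown.

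At 10 d, summed fibroblast and endothelial markers were higher with BOM beside these calls. Summed fibroblast markers were 63.9 to 70.2 CPM with BOM and 19.4 to 25.3 CPM with DMSO, and 45.9 to 48.6 CPM with BOM plus IFNg and 16.3 to 19 CPM with DMSO plus IFNg, with 11 or 12 of the 12 markers detected in each group. Summed endothelial markers were 37.2 to 53.7 CPM with BOM and 17 to 20.3 CPM with DMSO, with 6 of 8 and 7 of 8 detected. The endothelial markers did not move as a set, with log2 fold changes of -2.43 to 2.08. Of 4 tested, 1 was called higher and 1 lower with BOM, against 12.1% and 8.25% of all genes. With IFNg the calls were also 1 higher and 1 lower, against 13% and 10.1%. Few markers of other cell types passed the filter: 3 of macrophages and 1 each of T cells, B cells, keratinocytes and skeletal muscle. None of them was called in either comparison. Summed neuroendocrine markers overlapped, at 3660 to 4050 CPM with BOM and 3380 to 3950 CPM with DMSO. Their part in the Hoxb9 and Hoxb8 results was not tested.

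Regulator genes of the Hox system at 10 d are read against the 12.1% of all genes called higher and 8.25% called lower with BOM. Of 17 Polycomb genes 0 rose and 4 fell, namely Jarid2 (-0.70), Ezh1 (-0.63), Phc1 (-0.41) and Cbx2 (-0.37). Of 13 trithorax and MLL genes 0 rose and 2 fell, Ash2l (-0.52), a shared MLL subunit, and Kdm6b (-0.48), which removes the Polycomb mark. Of 12 retinoic acid genes tested 3 rose and 0 fell: Cyp26a1 (3.09), which degrades retinoic acid and is one of its direct targets, Dhrs3 (1.97) and the receptor Rara (0.84). With IFNg, where 13% of all genes were called higher and 10.1% lower, the counts were 0 higher and 4 lower for Polycomb, 0 and 3 for trithorax and MLL genes, and 5 and 1 for retinoic acid genes, with Cyp26a1 at 2.63. ParaHox and Evx genes did not pass the filter at 10 d or in tumors.

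RP-48OVA-LLO190 tumors carried the same Hoxb block. Hoxb2 to Hoxb9 summed to 519 to 707 CPM per tumor, and the other 31 members to 1.04 to 11.6 CPM. Members at 0 in all 18 tumors were Hoxa13, Hoxc12 and Hoxd1, and the most abundant members outside the block were Hoxd8 (mean 1.16 CPM) and Hoxc8 (1.01 CPM, at most 3.22). Per kilobase, Hoxb9 led with a mean of 96.3 RPKM, then Hoxb7 at 43.4, Hoxb6 at 42.4, Hoxb8 at 30.7, Hoxb4 at 20.3, Hoxb5 at 19.6, Hoxb2 at 2.31 and Hoxb3 at 2.28. Hoxb9 made 32.4% to 43.8% of the summed RPKM of Hoxb2 to Hoxb9 in tumors. The share was 5.97% to 18.1% in the 10 d libraries and 18% to 40.3% in the 4 RP-116 and RP-48 libraries at 96 h. The lowest of these 4 was an RP-48 library and the highest an RP-116 library. RNA type, culture and line differ with the tables, so these shares are set side by side without a test.

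BOM lowered 3 Hoxb genes and raised 1 in tumors. Hoxb4, which acts in the hindbrain and in blood stem cells, had 36.4, 46, 40.3 and 38 CPM in BOM tumors, against 52, 54.7, 57.6, 57.2 and 60.1 CPM in vehicle tumors. Every BOM tumor lay under every vehicle tumor, and Hoxb4 fell by 0.49 ± 0.10 on the log2 scale (SE, adjusted p = 0.00502). Hoxb5 had 42.4, 49.6, 42.6 and 43.2 CPM in BOM tumors, against 49.2, 52.5, 58.7, 67.9 and 74.9 CPM in vehicle tumors. BOM tumor 2 lay just above vehicle tumor 1 and the others did not overlap, and Hoxb5 fell by 0.45 ± 0.12 (adjusted p = 0.0168). Hoxb7, a trunk gene, had 55.3, 57, 56.1 and 61.3 CPM in BOM tumors, against 61.1, 67.1, 70.6, 73.6 and 72.5 CPM in vehicle tumors. BOM tumor 4 and vehicle tumor 1 nearly coincided, and Hoxb7 fell by 0.27 ± 0.08 (adjusted p = 0.0267).

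Hoxb3 went the other way, with 11.5, 12.3, 11.7 and 12.1 CPM in BOM tumors, against 9.44, 9.35, 10.1, 6.44 and 8.66 CPM in vehicle tumors. All BOM tumors were above all vehicle tumors, and Hoxb3 rose by 0.42 ± 0.13 (adjusted p = 0.0407). So 4 of 9 members tested were called, 1 higher and 3 lower, against 14.5% of 14332 genes, 5.9% higher and 8.63% lower. Hoxb8 (-0.27, adjusted p = 0.0625) and Hoxb6 (-0.23, adjusted p = 0.0678) missed the threshold. Hoxb9 had 252, 288, 255 and 243 CPM in BOM tumors, against 233, 230, 286, 264 and 268 CPM in vehicle tumors, at log2 0.01 ± 0.07 (adjusted p = 0.962).

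The Hoxb4 call was kept in every alternative run, and the others rested on single tumors. Without BOM tumor 1 or 3, Hoxb4 was the 1 member called. Without BOM tumor 2, or vehicle tumor 4 or 5, Hoxb4 and Hoxb5 were called, without BOM tumor 4 Hoxb4 and Hoxb7, and without vehicle tumor 3 the Hoxb7 call was lost. Without vehicle tumor 1, the deepest library, 6 members were called, with Hoxb6 and Hoxb8 added. BOM tumor 2 held 1110 CPM of skeletal muscle markers, all 8 of which had counts in the BOM group, against 6.92 to 131 CPM in vehicle tumors.

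**Figure D4:**
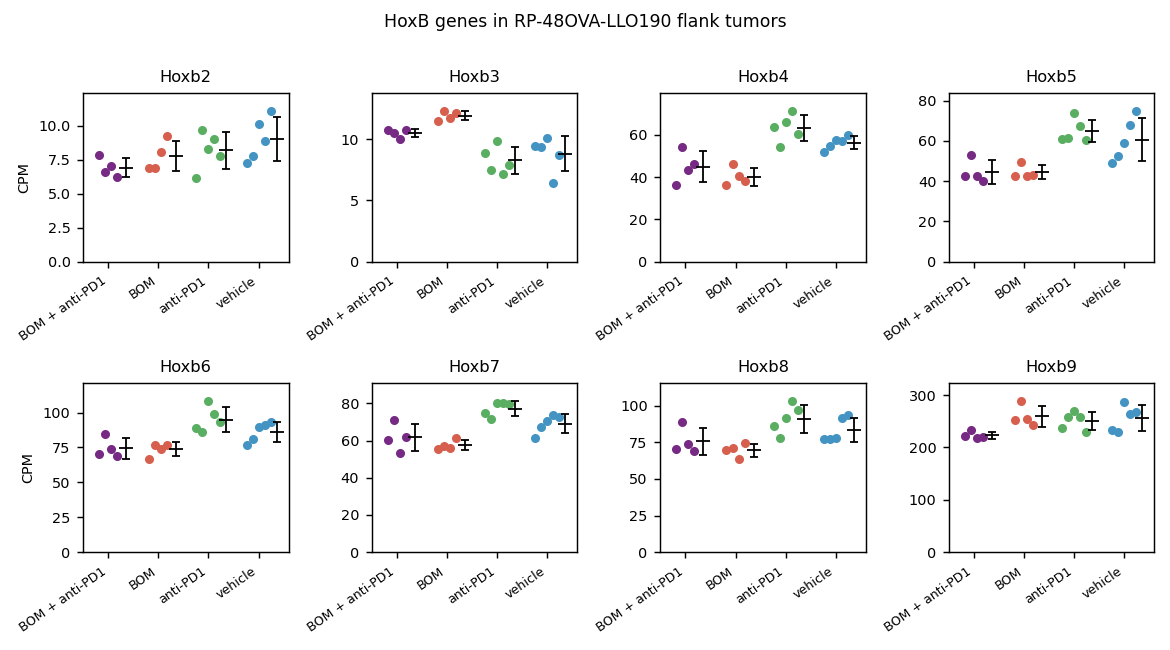
CPM (y axis, from 0) of Hoxb2 to Hoxb9 in RP-48OVA-LLO190 flank tumors in 4 groups. Points are tumors, and bars are mean ± SD (n = 4 with BOM, n = 5 without). The 8 tumors with BOM lie at 36.2 to 54 CPM in the Hoxb4 panel and the 10 without it at 52 to 71.3 CPM, while the groups overlap in the Hoxb9 panel.

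On top of anti-PD1, which blocks an inhibitory receptor of T cells, BOM lowered 6 of 9 members, against 32.4% of genes called, 15.8% higher and 16.6% lower. Hoxb4 had 36.2, 54, 43.1 and 46.2 CPM with BOM plus anti-PD1, against 63.5, 54.3, 66.1, 71.3 and 60.5 CPM with anti-PD1. The groups did not overlap, although BOM plus anti-PD1 tumor 2 came close to anti-PD1 tumor 2, and Hoxb4 fell by 0.52 ± 0.10 (adjusted p = 0.00111). Hoxb5 had 42.5, 53.2, 42.5 and 40.2 CPM with BOM plus anti-PD1, against 61, 61.6, 73.7, 67.6 and 60.5 CPM with anti-PD1. With no overlap, it fell by 0.56 ± 0.12 (adjusted p = 0.00157). Hoxb6, a trunk gene, had 70, 84.8, 73.7 and 68.7 CPM with BOM plus anti-PD1, against 89.1, 85.8, 108, 98.7 and 93.4 CPM with anti-PD1. Hoxb6 fell by 0.38 ± 0.08 (adjusted p = 0.00241), and BOM plus anti-PD1 tumor 2 was again the highest of its group.

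Hoxb7 had 60.3, 70.8, 53.4 and 62.1 CPM with BOM plus anti-PD1, against 74.6, 71.4, 79.9, 80.2 and 79.4 CPM with anti-PD1, and fell by 0.35 ± 0.08 (adjusted p = 0.00262) with no overlap. Hoxb8 fell by 0.29 ± 0.09 (adjusted p = 0.0239) and Hoxb9 by 0.19 ± 0.07 (adjusted p = 0.0437), with overlap of the groups in both. Hoxb9 had 221, 233, 218 and 220 CPM with BOM plus anti-PD1, against 238, 259, 269, 259 and 229 CPM with anti-PD1. Hoxb3 had 10.7, 10.5, 10 and 10.7 CPM with BOM plus anti-PD1, against 8.89, 7.47, 9.85, 7.16 and 7.89 CPM with anti-PD1, at log2 0.32 (adjusted p = 0.0785). The calls of Hoxb4, Hoxb5, Hoxb6 and Hoxb7 were kept in every alternative run. The Hoxb9 call was lost without any 1 of the 4 BOM plus anti-PD1 tumors, anti-PD1 tumor 1, 2, 3 or 4, or BOM tumor 1, 3 or 4, and the Hoxb8 call without BOM plus anti-PD1 tumor 1, 3 or 4 or anti-PD1 tumor 3, 4 or 5.

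BOM plus anti-PD1 against vehicle, which shares its vehicle tumors with the comparison of BOM and vehicle, gave Hoxb5 at -0.44 ± 0.12 (adjusted p = 0.0252) and Hoxb4 at -0.33 ± 0.10 (adjusted p = 0.0487), 2 of 9 members against 10.7% of genes (4.94% higher and 5.8% lower). Hoxb4 had 36.2, 54, 43.1 and 46.2 CPM with BOM plus anti-PD1, against 52, 54.7, 57.6, 57.2 and 60.1 CPM with vehicle, and BOM plus anti-PD1 tumor 2 lay within the vehicle range. For Hoxb5 the same tumor, at 53.2 CPM, also lay within the vehicle range of 49.2 to 74.9 CPM. Neither was called without BOM plus anti-PD1 tumor 1, 3 or 4 or without vehicle tumor 3, 4 or 5, and without vehicle tumor 1 the count was 4. The Hoxb4 call was also lost without vehicle tumor 2, BOM tumor 1, 3 or 4, or anti-PD1 tumor 1, 3, 4 or 5.

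Anti-PD1 against vehicle called 0 members in edgeR and in DESeq2, with 2 at an unadjusted p under 0.05 (Hoxb7 0.19 and Hoxb6 0.17) and 0% of genes called by edgeR. BOM plus anti-PD1 against BOM also called 0 members by either tool, with 1 at an unadjusted p under 0.05 (Hoxb9 -0.21, adjusted p = 0.557) and 0.00698% of genes called. The interaction of BOM and anti-PD1 called 0 members by either tool, 0 at an unadjusted p under 0.05 and 0% of genes. Its lowest adjusted p among the members was that of Hoxb9, at 0.58 with an estimate of -0.20 ± 0.10. A different response to BOM with and without anti-PD1 was thus not shown for any Hoxb gene, Hoxb9 included.

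**Figure D5:**
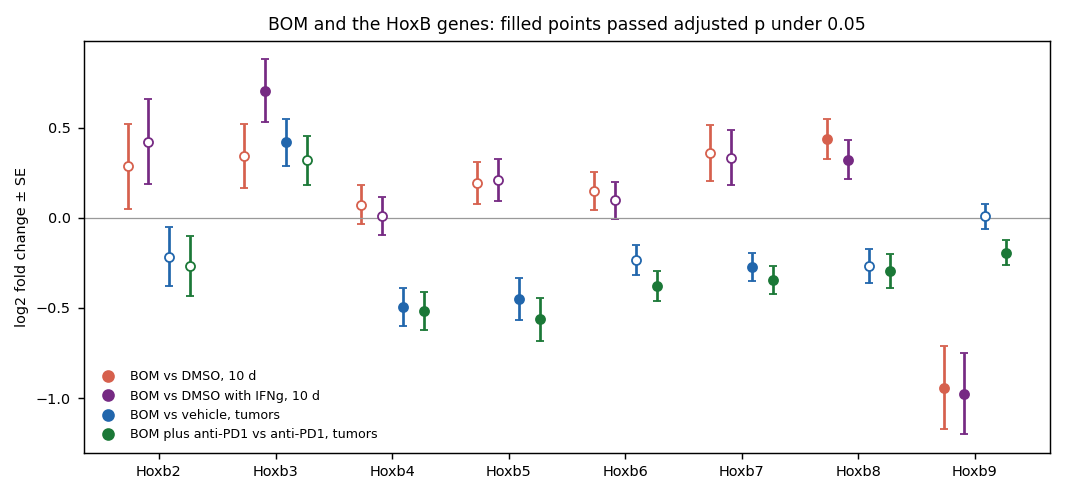
Log2 fold change ± SE (y axis) of Hoxb2 to Hoxb9 with BOM against its control in 4 comparisons: 10 d culture, 10 d culture with IFNg, tumors, and tumors with anti-PD1. Filled points passed adjusted p under 0.05. Hoxb9 fell in both 10 d comparisons (-0.94 and -0.98), Hoxb4 in both tumor comparisons (-0.49 and -0.52), and Hoxb3 estimates are above 0 in all 4.

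Across tables the members' responses to BOM took different shapes, set side by side here because tables were fitted apart. Hoxb3 had positive log2 fold changes of 0.34 and 0.70 at 10 d without and with IFNg, and of 0.42 and 0.32 in tumors without and with anti-PD1. It passed with IFNg at 10 d and in BOM against vehicle tumors, and not at 96 h (0.41, adjusted p = 0.92). Hoxb9 stood at 0.12 at 96 h, fell at 10 d without and with IFNg (-0.94 and -0.98), stood at 0.01 in BOM tumors and fell on top of anti-PD1 (-0.19). Hoxb4 stood at 0.07 and 0.01 at 10 d and fell in both tumor comparisons. The differences between culture and tumors were not tested.

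In tumors the SCLC markers moved beside the Hoxb genes. Of 12 neuroendocrine markers, 2 were higher and 8 lower in BOM than in vehicle tumors, against 5.9% and 8.63% of all genes. In BOM plus anti-PD1 against anti-PD1 tumors, 0 were higher and 6 lower, against 15.8% and 16.6% of all genes. The summed level of the 12 markers was 3640 to 4090 CPM in BOM tumors and 3740 to 4520 CPM in vehicle tumors. It was 3400 to 4180 CPM with BOM plus anti-PD1 and 3930 to 4430 CPM with anti-PD1. Fibroblast markers, all 12 detected, summed to 580 to 2110 CPM with BOM and 659 to 1470 CPM with vehicle, and to 429 to 769 CPM with BOM plus anti-PD1 and 291 to 2370 CPM with anti-PD1. Their part in the Hoxb results was not tested.

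Partner and regulator genes in tumors are read against 5.9% of all genes called higher and 8.63% lower in BOM than in vehicle tumors, and 15.8% and 16.6% on top of anti-PD1. In BOM against vehicle tumors the lower calls of the trithorax and MLL list and of the retinoic acid list were near that background. Of 9 cofactors 0 were higher and 2 lower in BOM than in vehicle tumors (Pbx4 -0.67, Pbx2 -0.38), and 0 and 3 on top of anti-PD1 (Pbx3 -1.23, Pbx4 -0.78, Pbx2 -0.50). Of 17 Polycomb genes 0 were higher and 3 lower (Phc1 -0.33, Jarid2 -0.28, Scmh1 -0.26), and 0 and 8 on top of anti-PD1. Of 13 trithorax and MLL genes 0 were higher and 1 lower (Dpy30 -0.37), and 0 and 5 on top of anti-PD1. Of 12 retinoic acid genes 0 were higher and 1 lower, Aldh1a2 at -5.15 (adjusted p = 7.6e-06), and 2 were higher and 2 lower on top of anti-PD1, with Aldh1a2 at -6.07 and Cyp26a1 at -1.42. Cyp26a1, which rose with BOM at 10 d, thus fell with BOM on top of anti-PD1 in tumors.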

How the data were processed

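The authors deposited raw read counts per gene, with gene length, for 6 libraries at 96 h, 10 libraries at 10 d and 18 tumors. Per the submitters' processing notes, bcl2fastq, FastQC 0.11.9, STAR 2.7 and featureCounts of Subread 2.0 were used with build mm10, and their settings are not given in the sources used here. Libraries were made with a kit that does not mark strand, per the labels' protocols, from polyA RNA (96 h and tumors) or total RNA (10 d). Each table was analysed on its own with edgeR 4.0.16 (R 4.3.3): TMM scaling, filterByExpr, the quasi-likelihood test (two-sided) and Benjamini-Hochberg adjustment over all genes tested, with a threshold of 0.05. At 96 h the fit had line and treatment as terms, and each line is 1 pair. At 10 d and in tumors it had the group as its term, sharing 1 estimate of the spread. The SE of a log2 fold change is its absolute value divided by the square root of the test's F statistic. CPM here is the count over the library's deposited total, unscaled, and RPKM is CPM per 1000 bases of the deposited length. For a line at 0 counts, folds are bounds from 3 counts over the line's libraries. For other low counts, ratios have exact 95% intervals, which cover counting error only, since reads carry no molecular identifiers. No libraries of a group were copies: the lowest chi-square per degree of freedom between them was 2.45. The script was tested on simulated data. All 39 members matched GENCODE M21 by versioned gene ID.

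Members, gene lists and tests were chosen with earlier results of these data known. Named are members called in a comparison, the 10 with the highest mean CPM in a table, members at 0 throughout where 5 or fewer, and members on in 1 line (at least 1 CPM) and at 0 in another. Of the other lists, at most 4 called genes per list are named, by lowest p, and the cofactor list at 10 d is not reported here. Alternatives tried were RLE and library-size scaling, no filter, DESeq2 1.42.0, a replicate block, leaving out each library, and 2 added after seeing the data, a filter by treatment group at 96 h and leaving out the 2 deepest tumors.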

Additional observations from a re-analysis of the deposited data

Results flagged for a closer look

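Tumor values of the 9 tested members were searched in each of the 4 groups, 36 sets in all, for a tumor far from the rest of its group by Dixon's criterion, which by chance picks about 1 set in 20. It picked 2. Hoxd8 had 1.74 CPM in vehicle tumor 1, the deepest library, against 0.836 CPM in the nearest vehicle tumor. Hoxb5 had 49.6 CPM in BOM tumor 2, against 43.2 CPM in the nearest BOM tumor, and that tumor also held 1110 CPM of skeletal muscle markers and 2110 CPM of fibroblast markers.

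Hoxb7 and Hoxb8 were picked because, after TMM scaling, each BOM library lay above each DMSO library at 10 d without IFNg, and each BOM tumor lay below each vehicle tumor. Hoxb7 did not pass the test at 10 d (adjusted p = 0.122), nor Hoxb8 in these tumors (adjusted p = 0.0625), and with anti-PD1 in both arms the Hoxb8 values overlapped. Hoxb8 stood at log2 -0.27 in BOM against vehicle tumors and at 0.44 in BOM against DMSO cells at 10 d, and Hoxb7 at -0.27 and 0.36. On unscaled CPM the highest BOM tumor for Hoxb7, at 61.3 CPM, lay above the lowest vehicle tumor, at 61.1 CPM. The difference between culture and tumors was not tested, because the tables were normalized separately and differ in RNA type.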

How the results depend on the processing

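Of 639 results for single genes under alternatives, 552 kept their direction and their side of the threshold, 87 kept the direction and lost the call, and 0 reversed. Of 261 counts of called members, 35 moved by over 1.5 times. RP-116 against RP-48 gave 1 call with DESeq2 in place of 2. BOM against vehicle tumors gave 2 calls with no filter and 2 with a replicate block in place of 4. BOM plus anti-PD1 against vehicle gave 1 call with no filter, 0 with a replicate block and 5 without the 2 deepest tumors in place of 2. Fits that each leave out 1 library gave 1 to 4 calls for RP-116 against RP-48, 1 to 3 for BOM against DMSO at 10 d, 1 to 3 with IFNg, 1 to 6 for BOM against vehicle, 0 to 4 for BOM plus anti-PD1 against vehicle, 4 to 7 for BOM plus anti-PD1 against anti-PD1, and 11 to 12 for G8545 against either other line. The cause was not tested. A filter by treatment group at 96 h, added after seeing the data, dropped Hoxd8 to Hoxd11 from the test by its construction, leaving 8 calls against G8545.

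Library-size scaling moved the median log2 of all genes in RP-116 against G8545 to -0.15 (-0.01 with TMM) and its calls to 1943 higher and 3657 lower (2446 and 2986 with TMM). At 10 d it gave 2208 higher and 909 lower for BOM (1837 and 1257 with TMM) and 2287 and 1072 with IFNg (1979 and 1539 with TMM), while the Hox calls of these comparisons stayed the same genes. At 96 h the line pairs the BOM and DMSO libraries, and with no line block 0 members were called there for BOM against DMSO. At 10 d, the 13 same-numbered pairs of libraries had correlations of 0.0584 to 0.393 (median 0.133), 10 of them over 0.1. The 24 different-numbered pairs at 10 d ran from -0.277 to 0.206 (median -0.112), 3 of them over 0.1. Libraries were centred on their group's mean first, so positive same-numbered correlations force negative ones elsewhere. Both sets of pairs are thus not separate evidence, and a batch shared by number was not tested. In tumors 25 same-numbered pairs ran from -0.356 to 0.512 (median -0.0788). The 96 different-numbered tumor pairs ran from -0.419 to 0.535 (median 0.0103). The main fits did not take the numbers as pairs. A replicate block at 10 d gave 3 calls without IFNg (Hoxb3 added) and 2 with it (Hoxb8 lost), and 4 for BOM plus anti-PD1 against anti-PD1. Depth limits the members outside the active blocks, most of them at a few counts per library.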
